A study of Sus scrofa with 105 samples.

Results

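The miRNAs described here are the porcine mature miRNAs whose number is 2000 or higher, without miR-4334-3p, whose counts repeat those of miR-339 (a total of 164778 against 164786 reads). The rule used only the names in the count table, not the measured values. It gave 128 miRNAs of 457 mature names, spread over 149 entries of the table; where a name had several entries, the one with the highest total was kept. At least 1 count was found for 62 of the 128 in 105 libraries. The name often given to such miRNAs, of restricted species range, rests on sequence comparisons that were not made here, so the set is called by its rule, the high-numbered miRNAs.

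A miRNA is a short RNA cut from the arm of a hairpin precursor and loaded into an Argonaute protein, which it guides to matching messenger RNAs. The 5p and 3p arms of 1 hairpin are made from the same transcript, and usually 1 of them is kept in larger amounts. Registry numbers follow the order of submission. Families shared by most vertebrates, among them those that dominate brain (miR-9, miR-124, the let-7 family), were named early and carry low numbers, while high numbers were mostly given to sequences found later by deep sequencing in 1 or a few species, and less is known of what they do.

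The RNA came from brains of female pigs (Sus scrofa, piglets) that had been fixed in formalin and kept in paraffin blocks, from a study of diffuse traumatic brain injury, and each small RNA library was made from 1 µg of it, per the labels' protocols. The sham or naive group (survival 0 to 8 days) gave 18 libraries from the frontal lobe and 18 from the hippocampus with the amygdala. Injured, untreated animals gave 10 and 10 libraries at 1 day and 15 and 15 at 6 to 8 days, called 1 week below. Injured animals treated with cyclosporine A (CsA, a calcineurin inhibitor) at 20 mg/kg per day, intravenously, with a loading dose 6 hours after injury and an infusion of 24 hours, gave 9 and 10 libraries at 30 hours. No injured animal at 30 hours without CsA and no uninjured animal with CsA is among the groups, so CsA and the later time cannot be told apart. The libraries belong to 53 animal codes, of which 52 have both regions. Each code was taken as 1 animal, though the series text speaks of fewer subjects. The sources used here give neither the piglets' age nor the handling of naive against sham animals. The miRNAs that mark neurons (miR-124a, miR-9 and miR-128) summed to 19301 to 34587 CPM (counts in 1000000) over all libraries. Those of oligodendrocytes (miR-219a and miR-338) summed to 348 to 2037 CPM, and those of red cells (miR-451, miR-144 and miR-486) to 41.8 to 399 CPM.

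The smallest library held 98008 counts, the largest 12703535, and the median was 7257404. The injured groups had deeper libraries than sham. The geometric mean total was 2.44, 1.67 and 2.16 times that of sham at 1 day, at 1 week and with CsA for frontal tissue, and 2.09, 1.46 and 2.10 times for the other region. Among the 10 libraries with the lowest totals 7 were sham and 3 were 1 week. Only 3 libraries lay under 0.1 of the median total, all sham: frontal lobe replicate 15 (98008 counts) and hippocampus and amygdala replicate 6 (401354), which are the same animal, and frontal lobe replicate 16 (678907). They touch every comparison with sham, so some of the results are also given without them. By the library total alone, a count of 3 was worth 30.6 CPM in the shallowest library and 0.236 CPM in the deepest. The CPM printed for single miRNAs also hold a scaling factor for each library. With it, 3 counts of miR-9788-3p in the shallowest library gave 46.6 CPM. Intervals given further on for slopes of raw counts come from the spread of the libraries around a fitted line, not from counting error alone.

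Most of the high-numbered names were not seen or were seen rarely. No count was found in any library for 66 of the 128 (51.6%), against 12 of the 328 other names (3.66%), and 12 of the 128 (9.38%) were counted in every library, against 186 of 328 (56.7%). Of the 62 that were detected, 13 were found in 1 to 5 libraries, 14 in 6 to 52 and 35 in 53 or more. All 62 together took 0.250% of all counts. Their share within a library ran from 0.0956% to 1.54%, with a median of 0.271%.

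Detection followed the block of numbers to which a name belongs. In the block from miR-9784 to miR-9862, the largest with 79 names, 60 were never counted and 2 (miR-9788-3p and miR-9858-5p) were found in all 105 libraries. In the block from miR-7134 to miR-7144, 21 of 22 names were counted and 2 were found in all libraries, both arms of miR-7134. All 5 names from miR-2320 to miR-2483 were detected, 3 of them everywhere (miR-2366, miR-2320-5p and miR-2483). From miR-4331 to miR-4339, 3 of 8 names were never counted, and miR-4331-3p and miR-4332 were in every library. From miR-10382 to miR-10391, 2 of 9 were never counted, and miR-10386 and miR-10391 were in every library. A name with no count can still have been present below the depth of these libraries. By the total alone, 3 counts in the median library correspond to 0.413 CPM.

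The number of high-numbered miRNAs with at least 1 count was 14 to 45 per library, with a median of 36. It followed the library total where totals varied widely. Over the 18 frontal sham libraries the number detected and log10 total had a Pearson r of 0.900 (permutation p = 4e-05, 0.00013 once adjusted over 16 relations) and a Spearman rho of 0.715 (p = 0.0012, 0.0039 once adjusted). Leaving out the 2 totals farthest from the median gave r = 0.620. In the 18 sham libraries of the hippocampus and amygdala r was 0.879 (permutation p = 1e-05, the smallest that 100000 resamples can give, 0.00011 once adjusted) and rho 0.861 (p = 2e-05, 0.00016 once adjusted), and r = 0.826 without 2. In the 1-week groups r was 0.896 and 0.844 (adjusted permutation p = 0.00011 and 0.00029, n = 15 each). In the 1-day and CsA groups, whose libraries held 5531753 counts or more, r ran from -0.203 to 0.512, with no adjusted permutation p under 0.17.

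**Figure D1:**
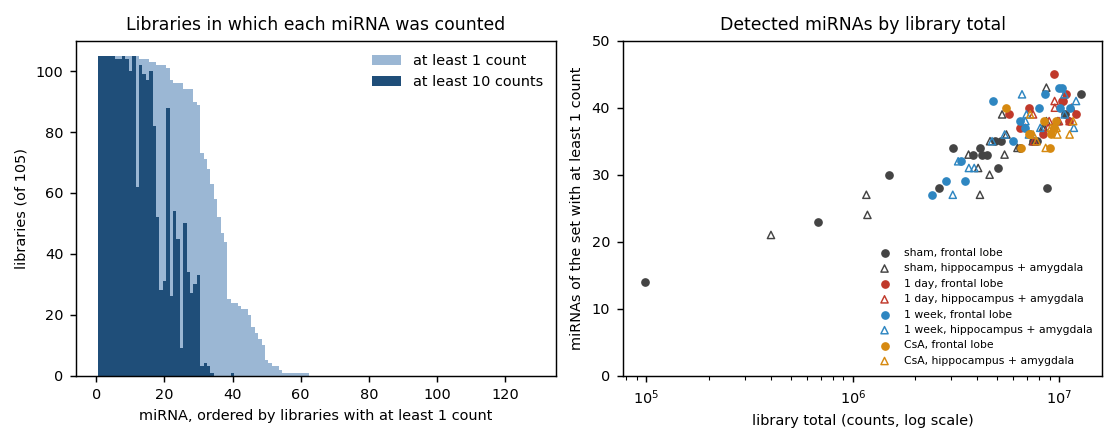
Left, libraries (of 105) with at least 1 count (light) and at least 10 counts (dark) for each of the 128 high-numbered miRNAs, in order of detection; right, the number of them with at least 1 count in each library against the library total on a log axis, filled circles for the frontal lobe and open triangles for the hippocampus and amygdala. The bars end at 62 miRNAs, and the shallowest library, with 98008 counts, holds 14.

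The share of counts taken by the set moved the other way. Against log10 total, r of the log2 share was -0.861 in frontal sham (permutation p = 0.00012 once adjusted), with a rho of -0.775 (0.0015) and r = -0.719 without 2. In the other sham group r was -0.896 (permutation p = 0.00011 once adjusted), with a rho of -0.920 (0.00016) and r = -0.940 without 2. In the frontal lobe and the other region r was -0.735 and -0.732 at 1 week and -0.565 and -0.645 at 1 day. With CsA it was -0.753 and -0.0574, and -0.103 and -0.315 without 2. Shallow libraries of the sham and 1-week groups thus held fewer of these miRNAs and gave them a larger part of their counts. Much of that part can be 1 member. Frontal sham replicate 16, with a share of 1.54%, had 8184 counts of miR-10386 and 730 of the next member, miR-2366. The relation without miR-10386 was not computed. Share and total contain the same total, so this is partly one number set against itself; raw counts are given further on for that reason.

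A few names made up most of what was counted. Over all libraries the highest median was that of miR-2366 (734 CPM, range 212 to 1904), whose RefSeq gene MIR2366-1 lies within MAP1A, a neuronal microtubule-associated protein gene. miR-7134-3p followed with a median of 610 CPM (range 137 to 1166), and its gene lies within TNRC6B, which encodes a scaffold of the silencing complex that miRNAs use. miR-6529 and miR-2320-5p came next, with medians of 475 and 372 CPM. In all, 11 of the 128 had a median of at least 10 CPM, 23 of at least 1 CPM, and 93 a median of 0. RefSeq (assembly Sscrofa11.1) has a miRNA gene for 101 of the 128 and for 47 of the 62 detected ones, and no strand was compared, so overlap with a gene says nothing of shared transcription. The abundant miR-10386, miR-4332 and miR-6529 were not among the matched names.

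**Figure D2:**
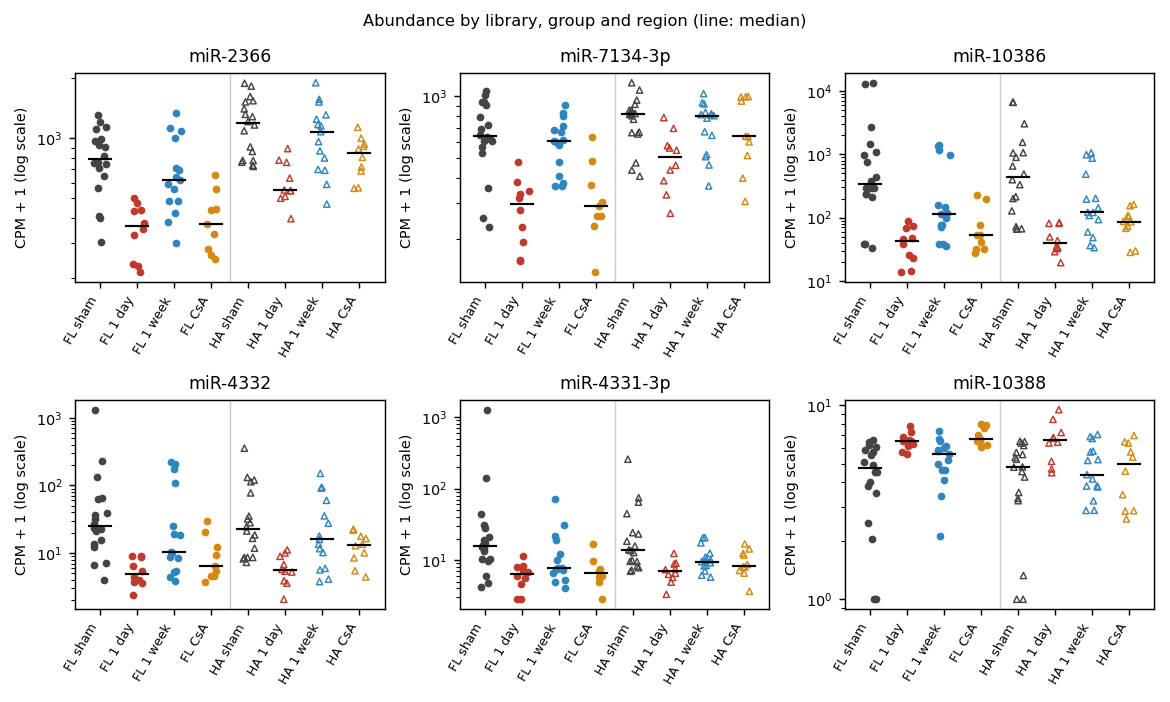
Abundance of 6 high-numbered miRNAs as CPM + 1 on log axes, 1 point per library, by region (FL, frontal lobe, filled circles; HA, hippocampus and amygdala, open triangles) and group, with a line at the median. miR-10386 spans 12.7 to 13589 CPM over all libraries, while miR-2366 and miR-7134-3p stay within 212 to 1904 and 137 to 1166 CPM.

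The first comparison asked which of these miRNAs differed between injured animals at 1 day and sham animals. In the frontal lobe 26 of the 128 passed the filter on low counts and were tested with edgeR's quasi-likelihood test. Lower levels at 1 day were called for 15 of them and a higher level for 1, at an adjusted p under 0.05. Over all 284 miRNAs tested, 26.1% were called lower and 18.7% higher. The median log2 difference of the 26 was -0.73, beside -0.04 over all tested. In the hippocampus and amygdala 29 were tested, of which 12 were called lower and 4 higher, beside 20.3% lower and 28.3% higher of all 290, with medians of -0.52 and 0.07. The 10 miRNAs called lower in both regions are 10 of 15 and 10 of 12. How many of all tested miRNAs were called lower in both was not counted. The sham and 1 day libraries are paired by animal code across the regions, so the lists are not independent. These shared calls therefore do not set the members apart from the other miRNAs.

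Beside these differences stand 3 measured facts. One is that the 1-day libraries were deeper, and with log10 library total in the fit 8 of 26 were called in the frontal lobe, all lower, and 3 of 29 in the hippocampus and amygdala, all lower. In the same fits 19.7% of all tested miRNAs were called in each region, 8 higher and 48 lower in frontal tissue, and 28 higher and 29 lower in the other. Another is that among animals whose code begins with 11 (6 sham and 5 at 1 day) 11 were called in each region, 11 of 25 beside 32.4% of all tested in frontal tissue and 11 of 29 beside 38.6% in the other. Among codes beginning with 12 or 13 (5 and 5) none was called, and 0% of all tested in each region; at an unadjusted p under 0.05 there were 9 of 22 members beside 61 of 284 miRNAs, and 6 of 28 beside 53 of 288. The meaning of these codes is unknown from the labels. Under 11 every 1-day library was deeper than every sham library. The largest frontal sham total was 5057795 and the smallest 1-day total 5707853, and 6280320 and 6873410 in the other region. Under 12 or 13 the totals of both groups overlapped. In both sets all 1-day and CsA codes carry the letter U and no sham code does, so letter and injury cannot be told apart there. The last is that scaling by library totals alone moves the median of all tested miRNAs to 0.24 in frontal tissue and 0.31 in the hippocampus and amygdala, and then calls 3 higher and 11 lower, and 5 higher and 9 lower, of the set. Over all tested miRNAs that scaling called 100 higher and 46 lower of 284, and 131 higher and 34 lower of 290. The part of depth and of the codes in the differences was not tested beyond these fits.

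Marker miRNAs of several cell types moved with the groups too. The summed red-cell markers had a median of 155 CPM in frontal sham and 107 at 1 day, and 220 and 163 in the other region. Those of oligodendrocytes stood at 1234 and 996 CPM in frontal tissue and at 832 and 653 in the other region. The neuronal sum was higher at 1 day, at 25683 and 28492 CPM in frontal tissue and 22373 and 26392 in the other region. Markers of muscle (miR-1, miR-133a-3p and miR-206) summed to 159 and 135 CPM, and 119 and 88.2, while those of leukocytes (both arms of miR-142, miR-223 and miR-150) summed to 165 and 154, and 147 and 162. No library had a sum of 0 for any of these lists, and their part in the differences was not tested.

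miR-10386 had the largest fitted difference of the set in both regions. In frontal sham it ran from 32.5 to 13589 CPM with a median of 339, and at 1 day from 12.7 to 87.3 with a median of 41.4 (n = 18 and 10). The groups overlapped, but 15 of 18 sham libraries lay above the highest 1-day library. The fitted log2 difference was -5.53 (SE 1.03, edgeR adjusted p = 4.3e-05). It follows the group means, 2005 ± 4161 against 42.9 ± 26.0 CPM (SD), which a few sham libraries set. Without sham replicate 16 it was -4.90, and without all 3 shallow libraries -3.79 (adjusted p = 0.000165). In the hippocampus and amygdala sham ran from 64.7 to 6698 CPM (median 442) and 1 day from 18.4 to 82.6 (median 38.5), a log2 difference of -4.77 (SE 0.82, adjusted p = 3.95e-05) and -4.66 without the shallow libraries. With log10 total in the fit the differences were -1.74 and -1.65 (edgeR adjusted p = 0.00486 and 0.00579). Among codes beginning with 12 or 13 they were -2.57 and -1.78 (adjusted p = 0.152 and 0.145), and among codes beginning with 11, -5.67 and -5.65 (adjusted p = 0.00802 and 0.00177).

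miR-4332 showed the same order of groups at a lower level. Frontal sham libraries held 2.98 to 1322 CPM (median 24.4) and 1-day libraries 1.42 to 8.00 (median 3.98), with 15 of 18 sham libraries above the highest 1-day value. The log2 difference was -4.14 (SE 0.95, edgeR adjusted p = 0.000531), and -3.16 without sham replicate 15. In the other region the medians were 21.9 and 4.57 CPM and the log2 difference was -3.25 (SE 0.70, adjusted p = 0.000296). With log10 total in the fit both fell short of the threshold, at -1.14 and -1.04 (adjusted p = 0.0839 and 0.0688).

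miR-4331-3p was the third miRNA of this kind. Its frontal sham libraries ran from 3.25 to 1275 CPM (median 14.7), of which the highest is replicate 15, and its 1-day libraries from 1.82 to 10.4 (median 5.31). The log2 difference was -3.26 (SE 0.81, edgeR adjusted p = 0.00112) and -1.95 without replicate 15. For the hippocampus and amygdala it was -2.18 (SE 0.48, adjusted p = 0.000297) and -1.61 without the shallow library, with medians of 12.7 and 5.93 CPM. With log10 total in the fit neither region kept its call (adjusted p = 0.161 and 0.127). miR-10391, at medians of 3.23 and 0.637 CPM in frontal sham and 1 day, had a log2 difference of -2.55 (SE 0.63, adjusted p = 0.00106) and -1.46 with the total in the fit (adjusted p = 0.0251).

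The 2 most abundant members had smaller differences with less spread. miR-2366 held 302 to 1306 CPM in frontal sham (median 789) and 212 to 500 at 1 day (median 362), and every 1-day library lay below the sham median. Its log2 difference was -1.19 (SE 0.22, edgeR adjusted p = 4.02e-05), and -0.80 with log10 total in the fit (adjusted p = 0.00305). In the other region medians were 1192 and 548 CPM and the log2 difference -0.96 (SE 0.18, adjusted p = 9.64e-05), with -0.71 under the total term (adjusted p = 0.0087). miR-7134-3p went from a median of 638 to 298 CPM in the frontal lobe, a log2 difference of -1.22 (SE 0.22, adjusted p = 3.45e-05), which stayed called with the total in the fit (-0.92, adjusted p = 0.0018). In the hippocampus and amygdala its medians were 818 and 502 CPM and its log2 difference -0.63 (SE 0.18, adjusted p = 0.00367), no longer called with the total in the fit (adjusted p = 0.0985).

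Its other arm, miR-7134-5p, had medians of 33.1 and 26.8 CPM in the same frontal groups and a log2 difference of -0.30 (SE 0.14), which did not pass the test (edgeR adjusted p = 0.0623). The log2 ratio of 3p to 5p of miR-7134 ran from 3.42 to 4.70 in frontal sham (median 4.24) and from 2.86 to 3.56 at 1 day (median 3.31), so the ranges overlapped little. In the other region the medians were 4.18 and 3.61. The difference of the 2 arms was not tested.

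The other frontal decreases were these. miR-6529 fell by 0.77 on the log2 scale (SE 0.17, edgeR adjusted p = 0.000258), from a median of 525 to 322 CPM. miR-7139-3p and miR-7137-3p, from genes within E2F7 (a cell-cycle repressor) and BUD23 (an rRNA methyltransferase), had log2 differences of -1.71 and -1.67 at medians under 6 CPM. miR-9788-3p, miR-9851-3p, miR-9858-5p and miR-9860-5p, at medians of 16.2, 7.04, 15.0 and 1.3 CPM in sham, had log2 differences from -0.71 to -0.87. miR-2320-5p and miR-2483, the latter from a gene within TENM1, which encodes a cell-adhesion protein of synapses, had log2 differences of -0.48 and -0.42. Their frontal sham medians were 372 and 56.5 CPM. Outside the frontal lobe, miR-7144-5p and miR-9810-3p were also called lower, at -0.65 and -1.32, the latter at a sham median of 1.23 CPM.

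The only frontal increase was that of miR-10388. It ran from 0 to 5.61 CPM in sham (median 3.74) and from 4.63 to 6.85 at 1 day (median 5.53), and every 1-day library lay above the sham median. The log2 difference was 0.53 (SE 0.18, edgeR adjusted p = 0.0162). With log10 total in the fit it was 0.29 (adjusted p = 0.282). For the hippocampus and amygdala it was 0.66 (adjusted p = 0.0374). There miR-7857-3p went from a median of 0.760 to 1.68 CPM (log2 difference 1.06, SE 0.34, adjusted p = 0.00897), miR-7139-5p from 0.743 to 1.99 CPM (1.00, SE 0.32, adjusted p = 0.00874) and miR-4331-5p from 5.71 to 7.69 CPM (0.43, SE 0.16, adjusted p = 0.0248). None of these 4 stayed called with the total in the fit (adjusted p = 0.204, 0.13, 0.187 and 0.146). The levels of miR-7857-3p and miR-7139-5p in sham are near 3 counts of a typical library, so their sizes are poorly fixed.

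The arms of miR-4331 and those of miR-7139 therefore stood on opposite sides of 0, as follows. For miR-4331 in the hippocampus and amygdala the 3p arm was called lower and the 5p arm higher at 1 day. For miR-7139 the frontal 3p arm was called lower (log2 difference -1.71, edgeR adjusted p = 0.00172) while the 5p arm stood at 0.60 (SE 0.33, adjusted p = 0.135). In the hippocampus and amygdala the 5p arm was called higher while the 3p arm stood at -0.77 (SE 0.35, adjusted p = 0.063).

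Animals given CsA were compared with sham and with 1 day. In the frontal lobe 12 of 26 were lower and 1 higher than in sham (19.4% and 14.8% of all tested), and in the hippocampus and amygdala 6 of 29 were lower and 1 higher (9.31% and 11%). miR-10386 held 26.1 to 228 CPM in the frontal lobe (median 51.5, log2 difference from sham -4.61, SE 1.03, edgeR adjusted p = 0.00128). In the other region it held 27.2 to 161 CPM (median 85.2, log2 difference -3.88, SE 0.78, adjusted p = 0.00058). miR-7857-3p was the increase in the hippocampus and amygdala, at 0.971 to 6.53 CPM (median 2.17, log2 difference 1.44, SE 0.34, adjusted p = 0.00362), and miR-10388 that in the frontal lobe (0.63, SE 0.19, adjusted p = 0.00944). With log10 total in the fit 4 frontal calls remained (miR-2366, miR-7134-3p, miR-7139-3p and miR-9788-3p, all lower) and none in the hippocampus and amygdala, beside 7.04% and 0.69% of all tested. Within codes beginning with 11 none was called in the frontal lobe and 2 of 29 in the other region (0% and 8.62% of all tested), and within codes beginning with 12 or 13 none in either (0% and 0%). Scaling by library totals alone gave 1 higher and 10 lower, and 2 higher and 3 lower, with medians of all tested miRNAs at 0.22 and 0.20. Over all tested miRNAs it called 90 higher and 35 lower of 284, and 58 higher and 14 lower of 290.

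No high-numbered miRNA was called between CsA and 1 day. In the frontal lobe 0% of all tested miRNAs were called in either direction and 1 of 26 members had an unadjusted p under 0.05, beside 12 of all 284. For the hippocampus and amygdala the called share was again 0% in both directions, while 9 of 29 had an unadjusted p under 0.05, beside 69 of all 290, and the smallest adjusted p of the set was 0.128. DESeq2 called none of the set in either region. Over all miRNAs it called 0 in the frontal lobe, and 6 higher and 1 lower in the other region. Both comparisons with sham share the sham libraries, so a likeness between the 1-day and the CsA difference is in part built in. For miR-2366 in the hippocampus and amygdala all 10 CsA libraries lay above the 1-day median (843 against 548 CPM), with a log2 difference of 0.43 (edgeR adjusted p = 0.181).

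At 1 week no member was called in either region. The called share of all tested was 0% higher and 0% lower in the frontal lobe, and 0% higher and 0.345% lower in the hippocampus and amygdala, and 4 members in each region had an unadjusted p under 0.05, beside 19 of all 284 and 15 of all 290. DESeq2 called 1 and 2 members lower, beside 1 and 3 lower and 0 higher over all miRNAs. miR-10386 stood at 35.0 to 1393 CPM in the frontal lobe (median 111), between the sham and 1-day medians, with a log2 difference of -2.35 (SE 0.73, edgeR adjusted p = 0.364). Outside the frontal lobe it was -2.11 (SE 0.60, adjusted p = 0.089), and miR-4331-3p stood at -1.52 (SE 0.41, adjusted p = 0.0695). Of the 1-week codes 4 begin with 11 and none with 12 or 13, so no value within codes is given.

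**Figure D3:**
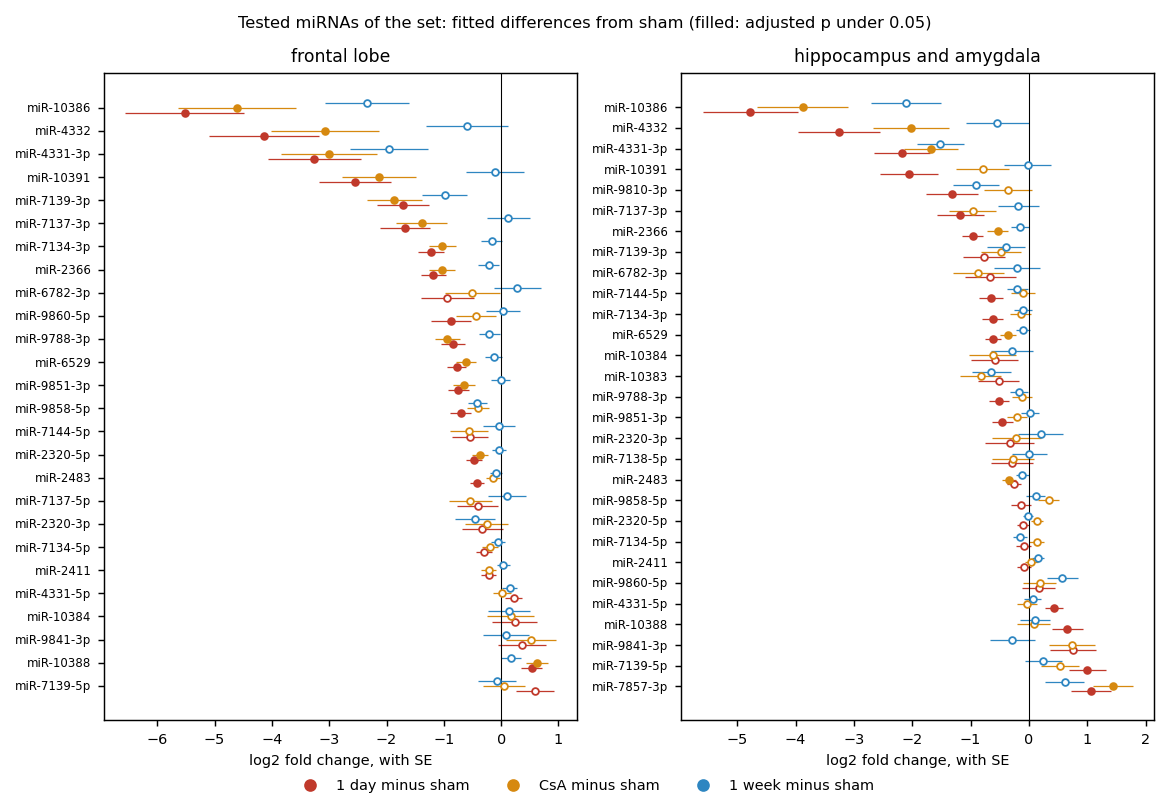
Fitted log2 differences from sham with their SE for the tested high-numbered miRNAs, 26 for the frontal lobe and 29 for the hippocampus with the amygdala, at 1 day, with CsA and at 1 week; filled points passed an adjusted p of 0.05 (edgeR). In the frontal lobe 15 of the 1-day points are called lower and 1 higher, and no 1-week point is filled.

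A second question was how each member depends on the library total itself. A model with group and log10 total gave, for each miRNA, the change in its share for a 10-fold larger total. An unchanged share gives 0. With scaling by library totals alone, a raw count that stays the same whatever the total gives -3.32 on the log2 scale; with TMM factors, which ran from 0.656 to 1.29 in frontal tissue and 0.728 to 1.30 in the other region, this is only approximate. In the frontal lobe 14 of 26 had a lower share in deeper libraries and 1 a higher share (18.7% lower and 22.2% higher of all tested). In the hippocampus and amygdala it was 10 of 29 and 2 (14.8% and 17.9%). The medians of the set were -0.74 and -0.66, beside 0.11 and 0.06 over all tested. Scaling by library totals alone moved the latter to 0.47 and 0.36 and called 8 members lower and 3 higher, and 5 lower and 4 higher. Over all tested miRNAs that scaling called 28 lower and 139 higher of 284, and 20 lower and 97 higher of 290.

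Both lists overlap those of the 1-day comparison. In the frontal lobe 12 miRNAs were called lower both at 1 day and with a larger total, which is 12 of 15 and 12 of 14, and in the hippocampus and amygdala 9 were, of 12 and 10. Each list comes from the same libraries, and the 1-day group holds deeper ones, so the 2 lists are not independent. The same overlap over all tested miRNAs was not counted, so these counts do not set the members apart from the other miRNAs.

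Values below -3.32 were found for 4 of the 284 miRNAs tested in the frontal lobe and 3 of the 290 in the hippocampus and amygdala. All of these are high-numbered. miR-10386 stood at -6.0 (SE 0.49, edgeR adjusted p = 3.68e-14) and -6.55 (SE 0.55, adjusted p = 2.64e-14), rank 1 from the bottom in each region. miR-4332 stood at -5.44 in each (SE 0.52 and 0.58), miR-4331-3p at -3.84 (SE 0.23) and -3.46 (SE 0.27), and miR-10391 at -3.41 (SE 0.57) and -3.22 (SE 0.73). With scaling by library totals alone, where -3.32 stands for a constant count, miR-10386 stood at -5.55 (SE 0.46) and -6.02 (SE 0.49) and miR-4332 at -4.88 (SE 0.45) and -4.96 (SE 0.49). miR-4331-3p was then at -3.45 (SE 0.22) and -3.25 (SE 0.26) and miR-10391 at -2.99 (SE 0.52) and -2.76 (SE 0.66), each within 1 SE of -3.32. The lowest value outside the set in the frontal lobe was -3.10 for miR-574-5p. Without the 3 shallow libraries miR-10386 stood at -7.59 and -7.52, miR-4332 at -7.52 and -6.52, miR-10391 at -4.94 and -4.36, and miR-4331-3p at -3.98 and -3.29.

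Raw counts hold no scaling. Over libraries whose totals span 130-fold, miR-4331-3p was counted between 16 and 246 times, with a median of 60. In the shallowest library it had 82 counts, and in the deepest 47. In the 10 shallowest libraries (totals of 98008 to 3051320) its median count was 66, and in the 10 deepest (11220476 to 12703535) 70, so its count did not follow the total across these ends. miR-4332 had 85 counts in the shallowest and 43 in the deepest library, with medians of 130 and 51.5 in those sets. miR-10386 had 836 and 531, with medians of 2282 and 514, and its highest count, 8184, was in frontal sham replicate 16 with a total of 678907.

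The counts of other abundant members rose with the total. miR-2366 had 84 counts in the shallowest library and 5874 in the deepest, with medians of 1326 and 6248 in the sets of 10, and miR-7134-3p had 65 and 5159, with medians of 998 and 5982. The library total coefficients of miR-2366 were -0.97 (SE 0.22, edgeR adjusted p = 0.000311) and -0.87 (SE 0.27, adjusted p = 0.0113) in the frontal lobe and the other region. Those of miR-7134-3p were -0.78 (SE 0.22, adjusted p = 0.00455) and -0.66 (SE 0.25, adjusted p = 0.0346). With scaling by library totals alone they were -0.59 and -0.49, and -0.42 and -0.41, of which only the first passed (edgeR adjusted p = 0.00551). miR-4331-5p, the other arm of the hairpin that gives miR-4331-3p, had 0 and 87 counts. Its coefficient was 0.31 (SE 0.27, edgeR adjusted p = 0.378) and 0.36 (SE 0.31, adjusted p = 0.366).

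**Figure D4:**
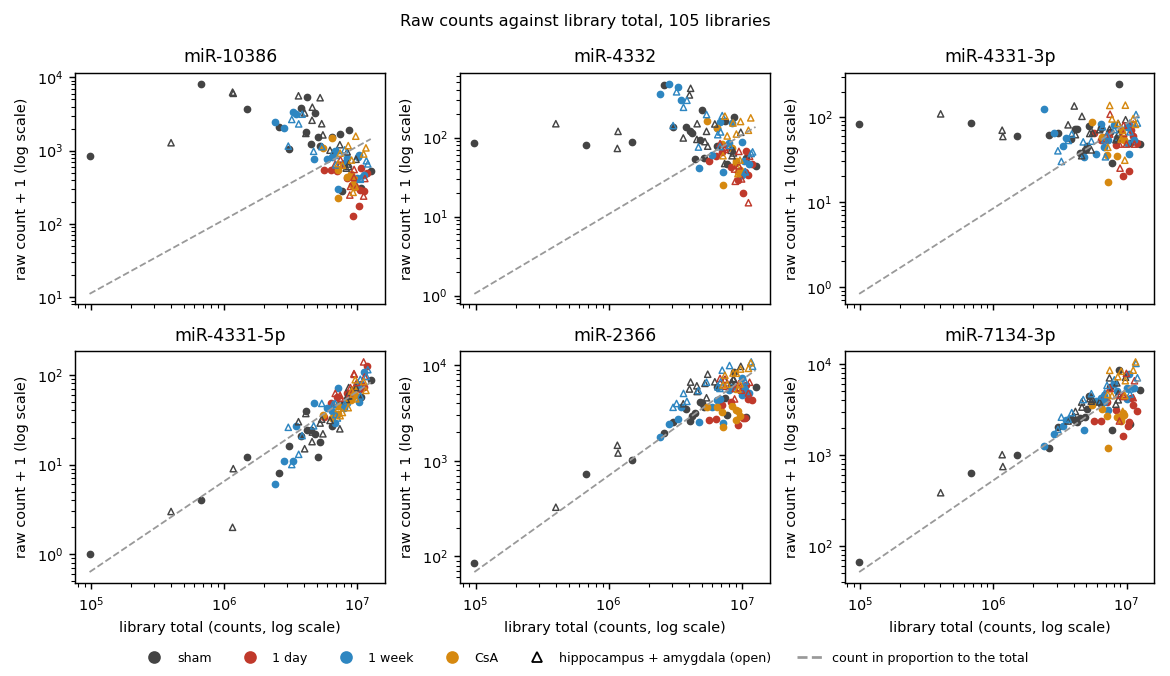
Raw count + 1 of 6 high-numbered miRNAs against the library total, both on log axes, 1 point per library, with a dashed line for a count in proportion to the total through the median. miR-2366, miR-7134-3p and miR-4331-5p rise with the total, miR-4331-3p stays between 16 and 246 counts, and miR-10386 and miR-4332 have their highest counts at low and middle totals.

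The relation was also looked at inside each group. Over all tested miRNAs in the 8 group and region sets, r and rho of log2(CPM + 1) with log10 total both passed an adjusted permutation p of 0.05 in 35 of 2296 relations with a negative sign (1.52%) and in 22 with a positive one (0.958%). Of these 15 and 1 are among the 220 relations of tested members, all in sham or 1-week sets, so most relations of the set did not pass. The p-values printed next are adjusted over the 216 relations of the 27 named members, which were named partly because they passed the library total term, so they describe those members and support nothing further. For miR-10386 in frontal sham r was -0.865 and rho -0.922 (permutation p = 1e-05 each, the smallest possible here, 0.00022 and 0.00072 once adjusted), and r = -0.849 without 2. At 1 week in the frontal lobe these were -0.933 and -0.896 (0.00022 and 0.00072 once adjusted), and r = -0.895 without 2. For the hippocampus and amygdala r was -0.857 in sham and -0.941 at 1 week (adjusted permutation p = 0.00022 each), and -0.931 and -0.936 without 2. At 1 day, with 10 libraries of similar depth, r was -0.696 and -0.831 in the frontal lobe and the other region (adjusted permutation p = 0.1 and 0.022; -0.409 and -0.861 without 2), and with CsA -0.782 and -0.136 (adjusted exact permutation p = 0.057 over 9 libraries, and permutation p = 0.81 over 10; -0.271 and -0.273 without 2). CPM holds the total in its denominator, so part of such an r is built in. The raw count of miR-10386, which holds no such denominator, changed by a log10 slope of -1.17 per log10 total in the frontal 1-week group (95% interval -1.67 to -0.668, n = 15) and -1.05 (-1.5 to -0.610) in the other region. In sham the slopes were -0.235 (-0.635 to 0.166) and -0.497 (-0.948 to -0.0464), and without the shallow libraries -0.980 (-1.67 to -0.290) and -1.12 (-1.55 to -0.688).

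miR-4332 had r of -0.894 and -0.867 in the 2 sham groups and -0.904 and -0.929 at 1 week, each with an adjusted permutation p of 0.0011 or lower, and r from -0.786 to -0.917 without 2. miR-4331-3p had r of -0.951, -0.942, -0.898 and -0.795 in the same order, with adjusted permutation p of 0.00022, 0.00022, 0.00022 and 0.004, and -0.764, -0.842, -0.827 and -0.775 without 2. The slope of its raw count was -0.0687 (95% interval -0.275 to 0.138) in frontal sham and -0.0885 (-0.290 to 0.113) in the other sham group, intervals that hold 0 and lie below the value of 1 that a count in proportion to the total gives. At 1 week it was -0.185 (-0.591 to 0.220) in the frontal lobe but 0.551 (0.248 to 0.855) in the other region, where the count did rise with the total, less than in proportion.

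The ratio of both arms of miR-4331 holds no library total or scaling factor apart from the 1 CPM added to each arm. In frontal sham log2 of 3p over 5p ran from -0.72 to 10.3 (median 1.41), and 3p exceeded 5p in 15 of 18 libraries. At 1 day it ran from -1.31 to 0.84 (median -0.19), with 3p above 5p in 4 of 10. Against log10 total r was -0.946 in frontal sham (permutation p = 1e-05, 0.0004 once adjusted over 40 relations) and rho -0.750 (p = 0.00051, 0.01 once adjusted), and r = -0.734 without 2. In sham hippocampus and amygdala r was -0.902 (p = 2e-05, adjusted permutation p = 0.0004), and at 1 week -0.829 and -0.769 (adjusted permutation p = 0.0017 and 0.0072). The highest ratio, 10.3, is that of the shallowest library, in which the 5p arm had 0 counts and the 1 CPM added before the ratio sets its size. For miR-7134, whose 3p arm dominated in every library, r ran from -0.501 to 0.0845 over the groups, with no adjusted permutation p under 0.3 for r or rho. miR-2320, whose 5p arm dominated in every library, gave none under 0.09. For miR-7137 in the 1-week hippocampus and amygdala r was -0.773 and rho -0.750 (adjusted permutation p = 0.0072 and 0.024), and for miR-7139 at 1 day in the frontal lobe r was -0.821 and rho -0.721 (0.024 and 0.1). The 5 hairpins were chosen after their values were seen.

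**Figure D5:**
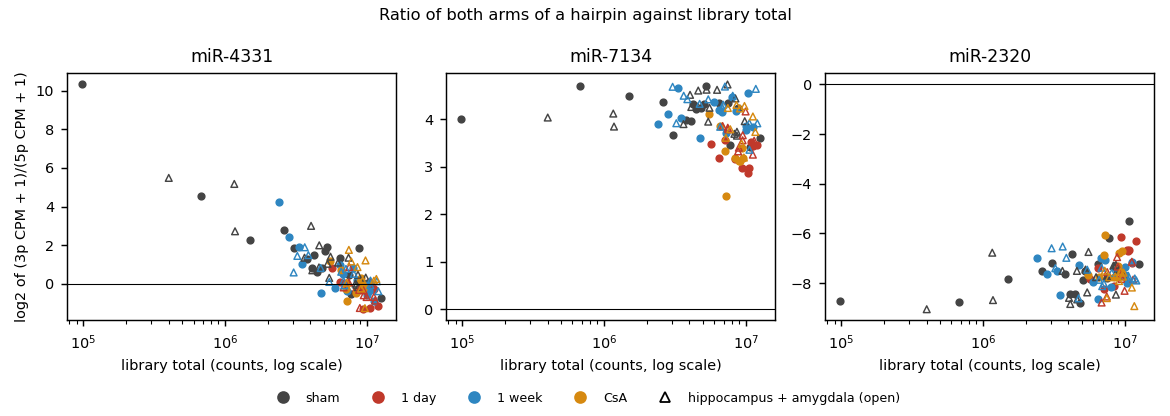
Log2 ratio of the 3p to the 5p arm (CPM + 1) against the library total on a log axis, 1 point per library, for miR-4331, miR-7134 and miR-2320. The miR-4331 ratio climbs from near 0 in deep libraries to 10.3 in the shallowest, while miR-7134 stays above 0 and miR-2320 below 0 in every library.

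By likeness over the 52 frontal libraries, the miRNAs whose CPM followed that of miR-10386 most closely outside the set were miR-320 (Spearman rho 0.929), miR-885-3p (0.920), miR-769-3p (0.919), miR-423-5p (0.913) and miR-193a-5p (0.912). In the set miR-4332 (0.945) and miR-2366 (0.934) came first. In the 53 libraries of the hippocampus and amygdala miR-885-3p (0.913) and miR-193a-5p (0.885) were again among the first 5, with miR-4332 (0.924) first in the set. For miR-4332 the first outside the set was miR-320 in the frontal lobe (0.922) and miR-885-3p in the other region (0.901). These values describe libraries that share their depths and groups.

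The regions were compared in the 52 animals that gave both, with the animal as a block. In sham animals 8 of 30 tested members were higher in the hippocampus and amygdala than in the frontal lobe and none was lower, while 21.8% of all tested were higher and 25.5% lower. The largest were miR-7138-5p (log2 difference 1.38, SE 0.36, edgeR adjusted p = 0.00131), whose gene lies within that of the growth factor receptor FGFR4, miR-10383 (1.33, SE 0.38, adjusted p = 0.00301) and miR-10384 (1.02, SE 0.36, adjusted p = 0.0152). Their sham medians were 1.07 against 0.255, 1.95 against 0.410 and 2.09 against 0.853 CPM, close to the level of 3 counts. miR-2366 rested on far more reads: its medians were 1192 and 789 CPM (log2 difference 0.52, SE 0.11, adjusted p = 5.61e-05). miR-2483 stood at 0.35 (SE 0.07, adjusted p = 0.000138), and miR-6529, miR-9788-3p and miR-7144-5p at 0.25, 0.37 and 0.58. Without the animal block 5 were called, and without the shallow libraries also 5; in both cases miR-6529, miR-9788-3p and miR-7144-5p missed the threshold (adjusted p = 0.154, 0.06 and 0.0825, and 0.0624, 0.0507 and 0.0763).

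The steep followers of the library total did not differ between regions in sham by this test: miR-10386 stood at -0.08 (SE 0.23, edgeR adjusted p = 0.83), miR-4332 at -0.26 (SE 0.24) and miR-4331-3p at -0.18 (SE 0.20). Whether the 1-day difference was of another size in 1 region was tested as an interaction. No member and 0% of all 298 tested miRNAs were called higher or lower there. The smallest adjusted p of the set was 0.856, and 5 of 30 had an unadjusted p under 0.05 (9 of all 298), miR-7134-3p (0.53, SE 0.21), miR-9858-5p (0.51), miR-9860-5p (0.90), miR-2320-5p (0.33) and miR-10384 (-1.08).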

How the data were processed

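The deposited values are raw counts, whole numbers for each mature miRNA entry of the pig in each library. Tools named in the submitters' processing notes are Trimmomatic 0.39 and cutadapt 1.9.1. Aligner, counter, annotation, build and any collapsing of molecular identifiers: not given in the sources used here; reads need not be independent molecules. The table holds 542 entries. Of entries sharing a mature name the one with the highest total was kept, and likewise of names with totals of at least 100 whose absolute count differences, added up over libraries, came to under 0.01 of the larger total (448 miRNAs left). All 105 columns were mapped by title.

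Counts were tested with edgeR 4.0.16 (glmQLFit, robust; glmQLFTest) under R 4.3.3, with TMM factors and filterByExpr (minimum count 10, minimum total 15), 2-sided, with Benjamini-Hochberg adjustment over all tested miRNAs at 0.05. Within a region all 4 groups entered 1 fit, and a further fit added log10 library total. Regions were compared with the animal as a block, as both libraries of a code are from 1 animal (paired deviations correlated with a median of 0.271 over 52 pairs, above 0.1 in 37). Replicates were taken to be animals; if codes do not stand for separate animals, p-values measure only the spread between libraries. CPM use the TMM factors, and log2 CPM in correlations has 1 CPM added. Correlations used 100000 resamples (exact under 10 libraries). The edgeR fits were tested on simulated data. Alternatives were other scalings, DESeq2 1.42.0, no filter, unmerged entries, other sets of libraries and each library left out.

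Members with the 12 highest median CPM and every other member past 0.05 in any comparison are named (27). Members, lists, tests and rules were chosen with earlier results of these data known. No miRNA sequence was used here.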

Additional observations from a re-analysis of the deposited data

Results flagged for a closer look

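In sets of 4 to 10 libraries, 108 sets of 1 named member and 1 group were looked at, and in 7 of them 1 library lay far from the others (the gap to its neighbour against the whole range, Dixon's 95% value); chance gives about 1 in 20. In CsA hippocampus and amygdala replicate 3 both miR-7134-5p (74.1 CPM, the next library at 51.6) and miR-7857-3p (6.53, next 3.37) were the highest. In CsA frontal lobe replicate 9 miR-4331-3p (15.6 CPM, next 8.71) and miR-7139-3p (1.08, next 0.548) were. The others were miR-9788-3p in CsA frontal lobe replicate 2 (13.6 CPM, next 9.33), miR-4331-5p in 1-day frontal lobe replicate 2 (9.33, next 7.00) and miR-6782-3p in 1-day hippocampus and amygdala replicate 6 (4.52, next 1.22).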

How the results depend on the processing

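With log10 library total as a covariate the members called at 1 day against sham went from 16 to 8 in the frontal lobe and from 16 to 3 in the hippocampus and amygdala, and with CsA against sham from 13 to 4 and from 7 to 0. Within codes beginning with 12 or 13 the count was 0 in all 4 of these comparisons. Within codes beginning with 11 it was 0 and 2 with CsA. DESeq2 called 1 and 2 members at 1 week (1 and 3 over all miRNAs), where edgeR called 0 members. For the regions in sham the count of 8 became 5 without the animal block and 5 without the shallow libraries. The cause of these changes was not tested. The code sets also hold fewer samples, and in them the code letter goes with injury. Signs turned, to log2 values of 0.0459 to 0.330, under codes 12 or 13 at 1 day in the hippocampus and amygdala for miR-7134-3p (0.0484) and miR-7137-3p (0.0459), and there with CsA for miR-4331-3p (0.123), miR-4332 (0.0812) and miR-6529 (0.0550), and under the covariate with CsA for miR-4331-3p (0.0454) and miR-4332 (0.330). Of the named members' calls 86 of 87 held under DESeq2 and under RLE size factors, 80 without the filter and 80 without the shallow libraries. Under RLE the calls over all miRNAs at 1 day were 74 higher and 63 lower in the frontal lobe, against 53 and 74, and 69 and 70 in the other region, against 82 and 59; library totals alone gave 100 and 46, and 131 and 34.

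Leaving out each library in turn gave 15 to 17 and 13 to 17 members called at 1 day, 12 to 14 and 3 to 8 with CsA, and 0 to 0 and 0 to 2 at 1 week, in the frontal lobe and the other region. In the latter the CsA calls of miR-6529 and miR-2483 were lost without any 1 of 30 and 26 libraries (adjusted p up to 0.132 and 0.129, edgeR), that of miR-2366 without any of 4, CsA replicates 1, 2, 6 and 9 (up to 0.0797), and that of miR-4332 without sham replicate 6 or CsA replicate 2 (up to 0.0532). At 1 day miR-10388 there was lost without any of 10 libraries (up to 0.0939), miR-9851-3p without any of 5 (up to 0.0734), miR-4331-5p without 1-day replicate 8 or 9 (up to 0.0755), and in the frontal lobe miR-9860-5p without any of 8 (up to 0.0718). The frontal CsA call of miR-2320-5p was lost without CsA replicate 1, 4, 5 or 6 (up to 0.0996). Frontal log2 differences with CsA moved to -3.98 for miR-10386 without sham replicate 16, and to -1.72 and -2.13 for miR-4331-3p and miR-4332 without sham replicate 15. Of the 216 correlations with the total, 26 passed both tests, 25 with 0.1 CPM added and 20 without the shallow libraries, an alternative chosen after seeing the data, as was scaling by library totals alone, under which 56 of 79 named calls held and 23 missed the threshold with the same sign. Members at medians under 1 CPM rest on a few counts per library.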

Other observations

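Among the detected names without a test, picked here after their values were seen, several had low totals of 139 to 337 counts over the whole series. miR-3613 was found in 63 libraries with a highest count of 10, miR-9843-3p in 52 with a highest count of 9, and miR-7135-3p in 71 with a highest count of 25. miR-9843-3p had at least 1 count in 10 of 10 frontal 1-day libraries and 8 of 18 frontal sham libraries, against 8 of 10 and 2 of 18 in the hippocampus and amygdala. The 1-day libraries were also deeper, so these shares of libraries are values and no comparison of levels.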
